A study of Homo sapiens with 6 samples.

Results

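Plasma membrane amino acid transport was followed through 10 genes in KMS11, a human cell line from multiple myeloma, the plasma cell tumour: SLC3A2, SLC7A5, SLC7A6, SLC7A11, SLC1A5, SLC1A4, SLC38A1, SLC38A2, SLC7A1 and SLC6A9. They were chosen by gene symbol, with earlier results of these data known. All 10 were found among the 17918 genes of the expression table and passed the filter on low counts, which left 12612 genes. RNA sequencing covered 3 libraries of cells with a short hairpin RNA (shRNA) that lowers CRIP1, called shCRIP1, and 3 libraries of cells with a scrambled hairpin, called scramble, which the labels list as wild type. Both groups were otherwise untreated, grew in the same medium with fetal bovine serum, and carried a hairpin construct. A single hairpin name is given per group, and nothing in the labels tells whether replicates were grown separately, so every p-value rests on a spread among libraries that may be technical.

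Amino acids cross the cell membrane through carriers that either take them up, often driven by sodium, or exchange them for others. The light chains LAT1 (SLC7A5), y+LAT2 (SLC7A6) and xCT (SLC7A11) each join the heavy chain 4F2hc, also called CD98 (SLC3A2), which brings them to the cell surface. Plasma cells make antibody in bulk and need a large supply of amino acids, and when these run short the transcription factor ATF4 is translated and binds genes for amino acid uptake and synthesis. Levels below are in TPM, a unit that corrects for gene length and fixes the total of a library, and changes are log2 fold changes, shCRIP1 minus scramble, from edgeR's quasi-likelihood test on estimated counts. A change was called at an adjusted p under 0.05 (Benjamini-Hochberg over 12612 genes).

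CRIP1 itself stood at 130.1 ± 3.71 TPM in shCRIP1 and 3097 ± 276 TPM in scramble libraries (SD, n = 3 each). Library totals ran from 17348822 to 18005318 estimated counts in shCRIP1 and from 16971454 to 17243017 in scramble. The plasma cell genes JCHAIN (1789 ± 158 against 6443 ± 223 TPM) and SDC1 (29.1 ± 1.40 against 39.8 ± 1.35 TPM) were expressed in shCRIP1 and scramble libraries, and of 15 tested plasma cell markers 4 were called higher and 11 lower. Of 13 tested erythroid markers 11 were called higher and 1 lower, and the 16 listed markers summed to 799 to 810 TPM in shCRIP1 and 141 to 146 TPM in scramble libraries. Both GATA1 and HBG2 were at 0 in scramble, while the scramble sum was mostly TFRC, the transferrin receptor, which is not specific to red cells; HBG2 has a near-identical copy, HBG1, with which counting may divide reads. In bulk RNA, fewer cells of a type and less RNA per cell cannot be told apart. Of 12 T, NK and myeloid markers, summing to 8.53 to 9.74 TPM in shCRIP1 and 1.37 to 1.84 TPM in scramble, 3 were tested and 2 called higher. Epithelial and stromal markers summed to 90.9 to 96.3 TPM in shCRIP1 and 18.9 to 21.6 TPM in scramble, with 6 called higher and 3 lower of 9 tested. For comparison, 39.4% of all tested genes were called higher and 38.1% lower. The part of these marker differences in the transporter results was not tested.

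Among the 10 transporters 5 were called higher and 4 lower after CRIP1 knockdown. Across all tested genes 77.6% were called in either direction, 39.4% higher and 38.1% lower, so being called at all is near the background. The median log2 fold change was 0.11 over the 10 genes and 0.01 over all tested genes. At 2-fold or more, SLC3A2 and SLC6A9 were called higher and SLC7A6 lower, where 10.0% of all tested genes passed as higher and 8.06% as lower. TPM values of shCRIP1 and scramble libraries did not overlap for 9 of the 10 genes, against 78.5% of all tested genes. With limma on log2(TPM + 1), all tested genes had a median of 0.12, and 61.4% of called genes were higher, against 50.8% in edgeR, so small changes are read against that shift.

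**Figure D1:**
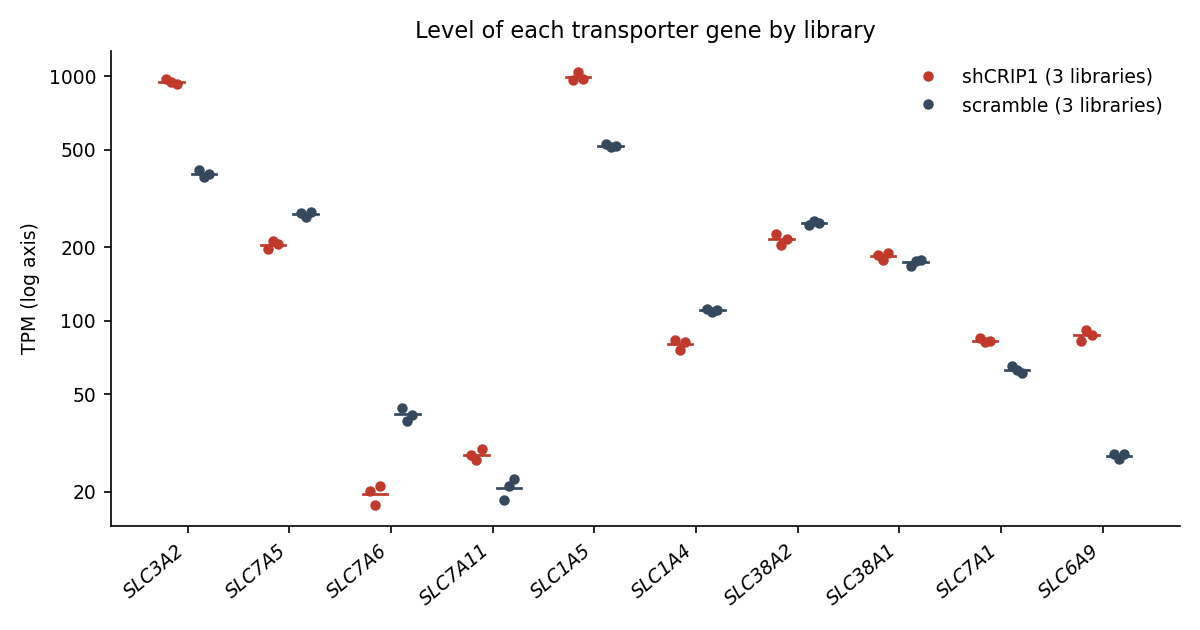
TPM of each transporter gene (log axis) in every library, with the 3 shCRIP1 libraries left of the 3 scramble libraries; short lines are group means. SLC3A2 and SLC1A5 sit near 950 and 992 TPM in shCRIP1, above 399 and 520 TPM in scramble, and the groups overlap for SLC38A1.

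The heavy chain gene rose by more than the spread between libraries. SLC3A2 (NCBI gene 6520, chromosome 11, 62856102 to 62888875, plus strand, GRCh38 as annotated by GENCODE 29) stood at 975, 947 and 928 TPM in shCRIP1 replicates 1 to 3, against 412, 387 and 399 TPM in scramble replicates 1 to 3. Every shCRIP1 library lay above every scramble library. The fitted change was 2.16-fold higher (1.11, SE 0.04, adjusted p = 1.66e-16), and 15.5% of tested genes changed by more in either direction.

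Of its light chains 2 fell and 1 rose by less. SLC7A5 (NCBI gene 8140, chromosome 16, 87830023 to 87869488, minus strand), which imports leucine and other large neutral amino acids in exchange for glutamine, had 196, 212 and 205 TPM in shCRIP1 libraries, against 275, 266 and 277 TPM in scramble libraries. All 3 shCRIP1 values were below the scramble values, a fall of 1.46-fold (-0.55, SE 0.04, adjusted p = 1.80e-11). The pseudogenes SLC7A5P1 and SLC7A5P2 are partial copies of SLC7A5, so its reads could be divided in counting, and its estimated count was not whole in 1 library.

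SLC7A6 (NCBI gene 9057, chromosome 16, 68264516 to 68301823, plus strand) exports arginine and lysine in exchange for glutamine and sodium. Its level was 20.1, 17.7 and 21.2 TPM in shCRIP1 libraries, against 44.0, 38.9 and 41.3 TPM in scramble libraries. The groups lay apart, with shCRIP1 2.32-fold lower (-1.21, SE 0.06, adjusted p = 5.71e-14). Its exons share 3371 bases with those of SLC7A6OS on the opposite strand, its estimated counts were not whole in 6 libraries, and no strand setting is given, so reads of the pair cannot be told apart in that stretch. SLC7A6OS had 18.3 ± 0.395 TPM in shCRIP1 and 18.7 ± 0.715 TPM in scramble libraries (SD, n = 3 each; -0.17, SE 0.05, adjusted p = 0.00687), and its groups overlapped. That call was lost in 4 of 16 alternatives, the 3 limma fits and the fit without shCRIP1 replicate 3, with an adjusted p of up to 0.696.

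SLC7A11 (NCBI gene 23657, chromosome 4, 138164097 to 138242349, minus strand) brings in cystine in exchange for glutamate and so feeds glutathione synthesis. It had 28.3, 27.0 and 29.9 TPM in shCRIP1 libraries, against 18.6, 21.1 and 22.6 TPM in scramble libraries. Every shCRIP1 value was above the scramble values, and the scramble libraries were spread more widely. The change was 1.24-fold higher (0.32, SE 0.05, adjusted p = 1.83e-05), and 59.8% of tested genes changed by more in either direction. Once a trend with GC content was removed, the log2 fold change of SLC7A11 was 0.175, still called higher. Its exons share 865 bases with SLC7A11-AS1 on the opposite strand.

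The balance of light to heavy chain transcripts, a ratio within each library, therefore differed between the groups. Summed TPM of SLC7A5, SLC7A6 and SLC7A11 over that of SLC3A2 was 0.251, 0.271 and 0.276 in shCRIP1 libraries, against 0.820, 0.843 and 0.854 in scramble libraries. All shCRIP1 ratios were below all scramble ratios, with means of 0.266 ± 0.0135 and 0.839 ± 0.0178 (SD, n = 3 each). An exact two-sided permutation test gave p = 0.1, the smallest that 3 against 3 allows, and 0.105 adjusted over the 20 sums, shares and ratios computed. The light chain sum alone was 252.7 ± 7.08 TPM in shCRIP1 and 335.1 ± 7.83 TPM in scramble (SD, n = 3 each).

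SLC7A5, SLC7A6 and SLC7A11 were each lower relative to SLC3A2 in shCRIP1 libraries. SLC7A6 over SLC3A2 was 0.0207 ± 0.00204 in shCRIP1 and 0.104 ± 0.00310 in scramble (SD, n = 3 each). SLC7A11 over SLC3A2, whose numerator also rose, was 0.0299 ± 0.00197 in shCRIP1 and 0.0521 ± 0.00618 in scramble. Among the light chains themselves, SLC7A11 relative to SLC7A5 was 0.139 ± 0.0100 in shCRIP1 and 0.0761 ± 0.00757 in scramble, a ratio chosen after its values were seen. The further light chains SLC7A7 (y+LAT1) and SLC7A8 (LAT2), also named after their values were seen, were at 5.02 ± 0.367 and 1.34 ± 0.225 TPM in shCRIP1 libraries, against 10.1 ± 0.0987 and 0.0467 ± 0.0404 TPM in scramble libraries. With these and SLC7A10, listed at 0, counted in, the ratio was 0.273 ± 0.0138 in shCRIP1 and 0.865 ± 0.0186 in scramble libraries.

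**Figure D2:**
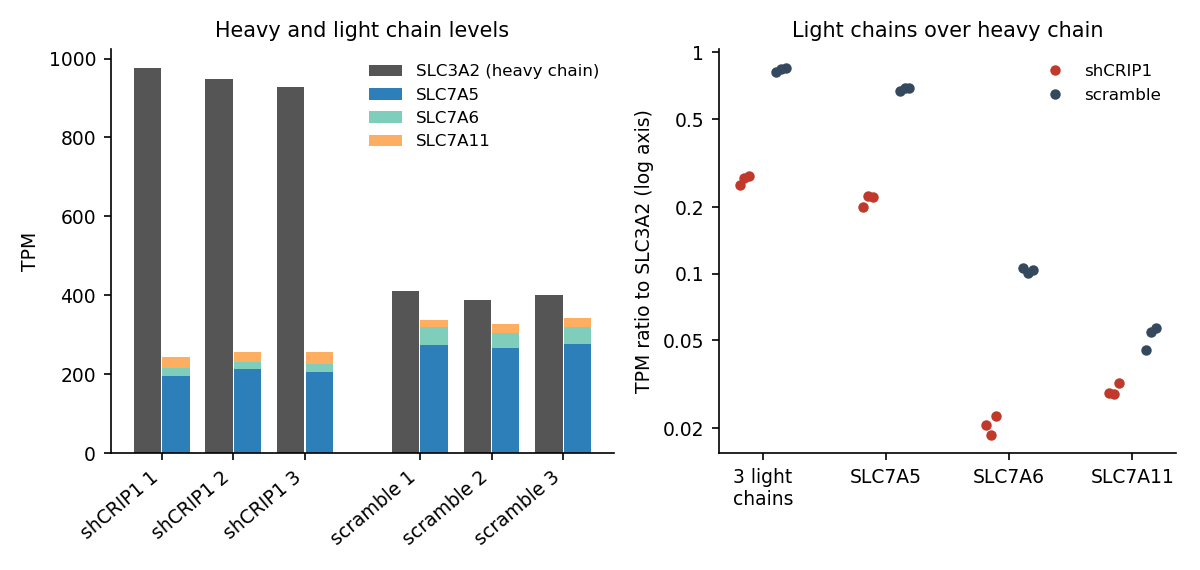
Left, TPM of the heavy chain gene SLC3A2 beside the stacked TPM of 3 light chain genes in each library; right, light chain TPM over SLC3A2 TPM (log axis), each point a library. The summed ratio lies between 0.251 and 0.276 in shCRIP1, below 0.820 to 0.854 in scramble.

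The related exchangers SLC1A5 and SLC1A4 moved in opposite directions. SLC1A5 (ASCT2; NCBI gene 6510, chromosome 19, 46774883 to 46788594, minus strand), the main glutamine importer of many tumour cells, had 966, 1036 and 973 TPM in shCRIP1 libraries, against 529, 516 and 516 TPM in scramble libraries. Its mean was the highest of the 10 genes in each group, though its range in shCRIP1 libraries overlapped that of SLC3A2. For SLC1A5 shCRIP1 lay above scramble throughout, 1.67-fold higher (0.74, SE 0.03, adjusted p = 7.79e-14). SLC1A4 (ASCT1; NCBI gene 6509, chromosome 2, 64988477 to 65023865, plus strand), which exchanges alanine, serine, cysteine and threonine, had 83.4, 76.2 and 81.9 TPM in shCRIP1 libraries, against 112, 109 and 110.4 TPM in scramble libraries. These groups did not overlap either, with shCRIP1 1.49-fold lower (-0.58, SE 0.04, adjusted p = 9.56e-12). SLC1A5 stood at 12.4 ± 1.08 times SLC1A4 in shCRIP1 and 4.71 ± 0.0291 times in scramble (SD, n = 3 each; ratio chosen after its values were seen; exact two-sided permutation p = 0.1, the smallest possible).

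The sodium-coupled importers of glutamine, alanine and other small neutral amino acids, SLC38A1 (SNAT1) and SLC38A2 (SNAT2), did not move alike: SLC38A2 fell, and SLC38A1 did not pass the test. SLC38A2 (NCBI gene 54407, chromosome 12, 46358189 to 46372867, minus strand) had 226, 204 and 217 TPM in shCRIP1 libraries, against 247, 256 and 251 TPM in scramble libraries. All shCRIP1 values were lower, by 1.28-fold (-0.36, SE 0.04, adjusted p = 1.36e-08), and 55.3% of tested genes changed by more in either direction. For SLC38A1 (NCBI gene 81539, chromosome 12, 46183063 to 46270017, minus strand) the values were 187, 176 and 189 TPM in shCRIP1 libraries, against 168, 175 and 178 TPM in scramble libraries. The groups overlapped, and the change did not pass the test (-0.047, SE 0.034, adjusted p = 0.210), with an interval of -0.11 to 0.019 (1.96 SE on either side). Its sign was not the same in every setting: it was 0.083 in limma on log2(TPM + 1), where unit, test and filter differ together, and it was called lower once a trend with GC content was removed (-0.15, adjusted p = 0.000106).

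SLC7A1 (CAT1; NCBI gene 6541, chromosome 13, 29509410 to 29595688, minus strand), the main importer of arginine and lysine in most cells, had 84.6, 81.6 and 82.4 TPM in shCRIP1 libraries, against 65.1, 62.7 and 61.3 TPM in scramble libraries. The groups did not overlap, and shCRIP1 was 1.197-fold higher (0.26, SE 0.04, adjusted p = 1.40e-06), while 66.2% of tested genes changed by more.

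SLC6A9 (GlyT1; NCBI gene 6536, chromosome 1, 43991500 to 44031467, minus strand), a sodium- and chloride-coupled glycine importer, changed most of the 10 genes. It had 82.7, 92.0 and 87.4 TPM in shCRIP1 libraries, against 28.6, 27.2 and 28.5 TPM in scramble libraries. Every shCRIP1 library was far above every scramble library, 2.77-fold on the fitted scale (1.47, SE 0.05, adjusted p = 2.26e-16), and 9.97% of tested genes changed by more. Developing red cells use this transporter to bring in glycine for haem. Of 13 tested erythroid markers 11 were called higher and 1, TFRC, lower, where 39.4% of all tested genes were called higher. HBG2, among those higher, had 185 ± 5.22 TPM in shCRIP1 and 0 in each scramble library. SLC6A9 was detected in scramble libraries, where GATA1 and HBG2 were at 0. The part of the erythroid markers in the SLC6A9 result was not tested. The exons of SLC6A9 share 404 bases with CCDC24 on the opposite strand, which had 1.12 ± 0.101 TPM in shCRIP1 and 1.63 ± 0.444 TPM in scramble.

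**Figure D3:**
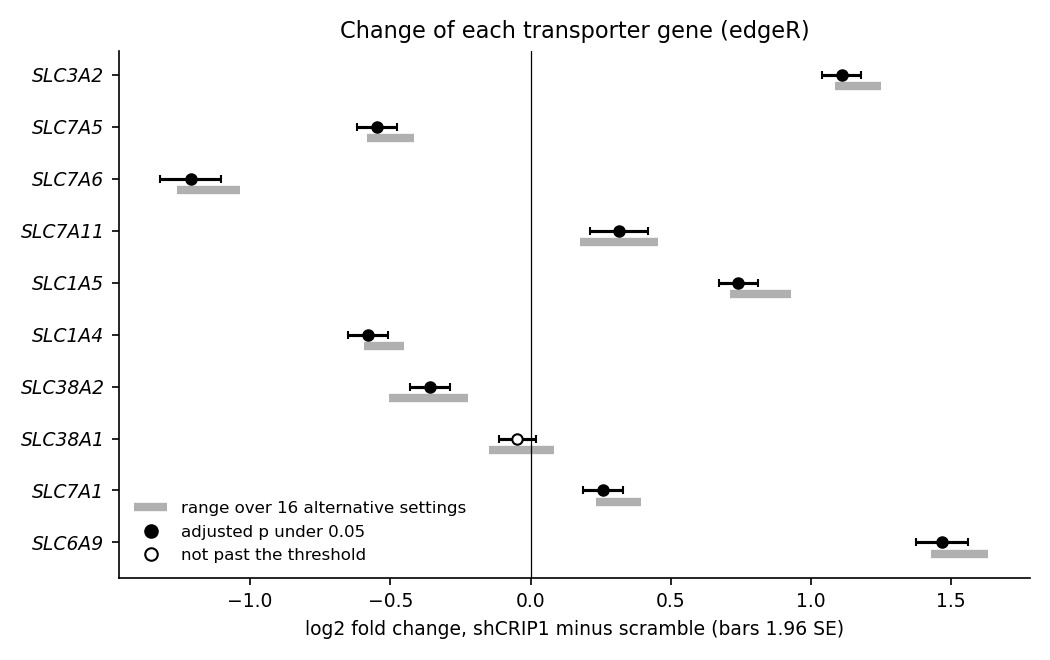
Log2 fold change of each transporter gene, shCRIP1 minus scramble, with bars of 1.96 SE; grey bars span 16 alternative settings of the processing. SLC38A1 is the gene whose grey bar crosses 0, from -0.15 to 0.083.

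Summed over the 10 genes, transporter transcripts reached 2845 ± 28.2 TPM in shCRIP1 and 1881 ± 20.9 TPM in scramble libraries (SD, n = 3 each), without overlap. The largest rises in TPM were those of SLC3A2 (950 in shCRIP1, 399 in scramble) and SLC1A5 (992 and 520), and 4 genes were called lower. The fitted changes in edgeR were 2.16-fold for SLC3A2 and 1.67-fold for SLC1A5. All tested genes had a median of 0.12 on log2(TPM + 1) and 0.01 in edgeR, so the summed rise is read against that shift. The 26 other plasma membrane carriers in the table summed to 160 to 169 TPM in shCRIP1 and 265 to 272 TPM in scramble. The shares of SLC3A2, SLC1A5 and SLC6A9 were higher in shCRIP1. The share of SLC3A2 was 33.4% ± 0.713 in shCRIP1 and 21.2% ± 0.441 in scramble, and that of SLC1A5 was 34.9% ± 1.12 in shCRIP1 and 27.7% ± 0.235 in scramble. The share of SLC7A5 was 7.19% ± 0.270 in shCRIP1 and 14.5% ± 0.188 in scramble, and that of SLC38A2 was 7.58% ± 0.421 in shCRIP1 and 13.4% ± 0.375 in scramble. SLC6A9 made up 3.07% ± 0.153 in shCRIP1 and 1.49% ± 0.0265 in scramble. For SLC7A11 the shares overlapped, from 0.942% to 1.06% in shCRIP1 and from 0.977% to 1.2% in scramble.

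The order of levels changed with these shifts. In shCRIP1 libraries it ran SLC1A5, SLC3A2, SLC38A2, SLC7A5, SLC38A1, SLC6A9, SLC7A1, SLC1A4, SLC7A11 and SLC7A6. Within that order the ranges of SLC1A5 and SLC3A2 overlapped, as did those of SLC38A2 and SLC7A5, of SLC6A9 and SLC7A1, and of SLC7A1 and SLC1A4. In scramble libraries the order was SLC1A5, SLC3A2, SLC7A5, SLC38A2, SLC38A1, SLC1A4, SLC7A1, SLC7A6, SLC6A9 and SLC7A11, and no neighbours overlapped.

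Sequence upstream of the transcript starts was searched because ATF4, the antioxidant factor NRF2 and MYC bind known motifs in some of these genes. The windows were RefSeq's (GRCh38.p14), from 250 bases before to 50 after each start, with 15 windows for 9 of the 10 genes. The motifs were TGATGNAA (amino acid response element), TGACNNNGC (antioxidant response element) and CACGTG (E-box), on both strands; no letters of a match were shared between motifs in the stretches shown. The first was found in 5 of 15 windows, of SLC3A2, SLC1A5, SLC1A4, SLC38A1 and SLC7A1, where 3.62% of all 35116 windows hold it. The second was found in 5 of 15 windows, of SLC3A2, SLC1A5, SLC7A1, SLC7A5 and SLC7A6, against 13.3% of all windows, and the E-box in 2, of SLC7A5 and SLC1A5, against 7.26%. By gene, 5, 5 and 2 of 9 held the motifs, against 4.46%, 16.1% and 8.77% of 27305 genes. No match was listed for SLC7A11, SLC38A2 and SLC6A9, among which is the gene without a window. A match is a description of letters, windows of the same gene are not independent, and the table's counts do not separate starts of the same gene.

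The following stretches show matches beside genes that rose, fell and did not pass the test, on the gene's own strand, with the match in capitals (reverse complement for SLC1A4).
SLC3A2 (higher), chr11:62881652-62881680, plus strand, inside the gene before an internal start, antioxidant response element: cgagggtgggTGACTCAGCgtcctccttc
SLC7A1 (higher), chr13:29595735-29595803, minus strand, upstream of the gene, antioxidant response element: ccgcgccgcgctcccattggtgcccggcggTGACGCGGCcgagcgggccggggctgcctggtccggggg
SLC7A6 (lower), chr16:68264467-68264525, plus strand, upstream, antioxidant response element: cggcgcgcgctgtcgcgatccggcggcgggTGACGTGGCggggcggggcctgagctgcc
SLC7A5 (lower), chr16:87869602-87869667, minus strand, upstream, E-box: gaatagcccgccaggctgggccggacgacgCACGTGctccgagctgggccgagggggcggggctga
SLC1A5 (higher), chr19:46784894-46784921, minus strand, inside the gene before an internal start, amino acid response element: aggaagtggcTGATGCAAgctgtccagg
SLC1A4 (lower), chr2:64989362-64989399, plus strand, at a transcript start within the intron of a longer transcript, amino acid response element: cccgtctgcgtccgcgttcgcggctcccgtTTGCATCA
SLC38A1 (not past the test), chr12:46266513-46266550, minus strand, at an internal start, amino acid response element: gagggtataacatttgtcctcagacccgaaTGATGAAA
These stretches hold antioxidant response element letters beside genes called higher and lower, and amino acid response element letters beside genes called higher, lower and neither.

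Other plasma membrane carriers of amino acids moved both ways, with a median below 0. The table lists 26 such genes, of which 11 were tested. Of these, 3 were called higher and 6 lower, or 4 and 5 on log2(TPM + 1). In edgeR 39.4% of all tested genes were called higher and 38.1% lower. The median log2 fold change of the 11 was -1.11, the value of SLC7A7, against 0.01 over all tested genes. SLC7A2, SLC1A3 and SLC7A8 averaged 0.363, 0.47 and 0.695 TPM over the 6 libraries. This list and those below were chosen with earlier results of these data known. SLC6A6, the taurine carrier, fell to 7.11 ± 0.423 TPM in shCRIP1, against 34.2 ± 0.627 TPM in scramble (SD, n = 3 each; -2.41, SE 0.05). SLC38A5, another sodium-coupled glutamine carrier, fell to 78.9 ± 5.20 TPM in shCRIP1, against 178 ± 2.82 TPM in scramble (-1.29, SE 0.05), and the large neutral amino acid carrier SLC43A2 fell to 0.480 ± 0.0755 TPM, against 1.68 ± 0.0917 TPM in scramble. The 3 genes called higher, named with their values already known, were SLC43A1 (30.2 ± 1.22 TPM in shCRIP1 and 15.4 ± 1.52 TPM in scramble), SLC6A15 (30.3 ± 2.16 and 18.6 ± 0.859 TPM in shCRIP1 and scramble) and SLC7A8, which had 32, 40 and 46 estimated counts in shCRIP1 and 2, 0 and 2 in scramble libraries. Of 8 tested lysosomal carriers 3 were called higher and 2 lower, with SLC38A9, an arginine sensor of the lysosome, higher (0.34, SE 0.05) and SLC36A4 (-0.65, SE 0.09) and the nucleoside carrier SLC29A3 (-0.76, SE 0.12) lower; their median was 0.03.

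Genes of the amino acid response rose for the most part. Of 30 genes 20 were called higher and 7 lower, or 23 and 3 on log2(TPM + 1), with a median of 0.52. Those called lower in edgeR, named after their values were seen, were CHAC1, PSPH, MTHFD2, NUPR1, GPT2, JDP2 and GARS1. This list holds none of the 10 transporters. By comparison, 39.4% of all tested genes were called higher and 38.1% lower in edgeR, with a median of 0.01. ATF4 stood at 1251 ± 66.8 TPM in shCRIP1 and 926 ± 10.9 TPM in scramble (SD, n = 3 each; 0.30, SE 0.04). Larger rises were in DDIT3 (CHOP, a stress transcription factor; 742 ± 25 against 198 ± 2.70 TPM), TRIB3, a pseudokinase that restrains ATF4 (301 ± 24.3 against 85.5 ± 2.89 TPM), and WARS1, tryptophanyl-tRNA synthetase (391 ± 7.02 against 146 ± 2.56 TPM), each in shCRIP1 against scramble. Among 7 genes for eIF2alpha (EIF2S1), the factor whose phosphorylation raises ATF4 translation, its kinases and its phosphatase subunits, PPP1R15A (GADD34) was the gene called, higher at 302 ± 19.4 TPM in shCRIP1 and 98.7 ± 5.05 TPM in scramble (1.48, SE 0.05). That count of 1 higher depended on the setting and was 5 with upper-quartile scaling and 6 on log2(TPM + 1).

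Genes that use the carried amino acids went both ways, with those of cystine use, glutathione and NRF2 mostly lower. Of these 17 genes 4 were called higher and 13 lower (median -0.29), or 4 and 10 on log2(TPM + 1). In edgeR the shares over all tested genes were 39.4% higher and 38.1% lower. Glutathione synthetase GSS (33.7 ± 2.64 TPM in shCRIP1 and 61.2 ± 2.15 TPM in scramble; -0.99, SE 0.06) and thioredoxin TXN (777 ± 52.8 and 1263 ± 58.7 TPM in shCRIP1 and scramble; -0.84, SE 0.04) were among those lower, while NFE2L2, encoding NRF2, rose (0.50, SE 0.04). Of 12 genes of glutamine and glutamate metabolism 6 were called higher and 6 lower (median 0.14). The higher ones included asparagine synthetase ASNS (551 ± 21.4 TPM in shCRIP1 and 222 ± 6.65 TPM in scramble; 1.18, SE 0.04), the aspartate aminotransferase GOT1 (1.67, SE 0.04) and GFPT1, which makes hexosamine from glutamine (1.31, SE 0.04).

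Among 29 genes through which amino acids reach the kinase mTORC1, 15 were called higher and 10 lower (median 0.17). Over all tested genes the shares were 39.4% higher and 38.1% lower (median 0.01). RRAGA, a Rag GTPase that recruits mTORC1 to lysosomes, rose (1.18, SE 0.05), whereas CASTOR2, of the arginine sensor family (-1.85, SE 0.05; its reads may be shared with a near-identical pseudogene), and SESN3, of the leucine sensor family (-1.33, SE 0.04), fell. Of 11 transporter partners and traffic genes 4 were called higher and 5 lower (median -0.07). The kinase SGK1, which raises the surface level of several carriers, fell to 33.8 ± 1.18 TPM in shCRIP1, against 98.8 ± 4.35 TPM in scramble (-1.68, SE 0.05). LAPTM4B, which brings LAT1 to lysosomes (-0.64, SE 0.04), and galectin-3, LGALS3, which binds CD98 (-1.24, SE 0.09), fell, and MYC, a known activator of SLC1A5 and SLC7A5, rose by little (0.18, SE 0.04, adjusted p = 0.000354).

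**Figure D4:**
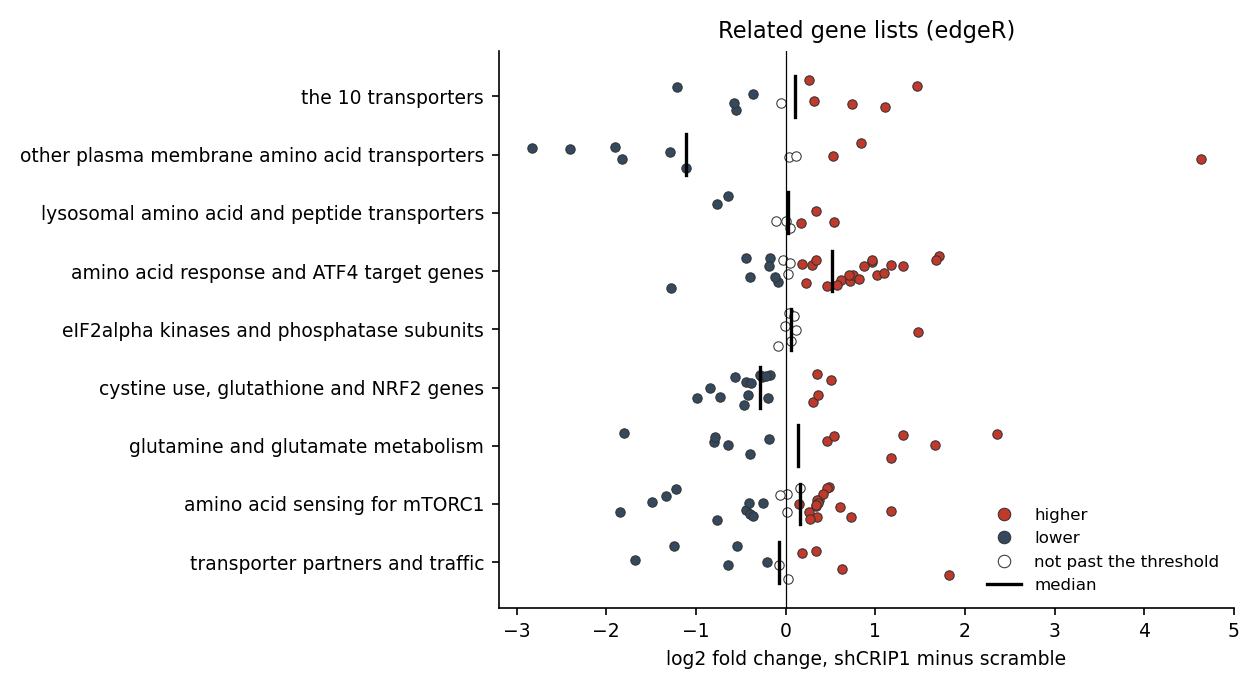
Log2 fold change, shCRIP1 minus scramble, of every tested gene in each list; points are genes, coloured by call, and vertical lines are medians. The median is 0.52 for amino acid response genes and -1.11 for the other plasma membrane carriers, of which some average under 1 TPM. The 10 transporters lie on both sides of 0.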

How the data were processed

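RNA of 6 KMS11 libraries was sequenced after a SMARTer kit, per the labels' protocols. The deposited table gives estimated counts, FPKM and TPM for 17918 genes, per the file headers; RSEM 1.2.8, HISAT2 2.1.0, Bowtie2 2.2.5 and the build GRCh38.p13 are credited to the submitters' processing notes. Roles, annotation and strand setting are not given in the sources used here. The authors' estimated counts need not be whole and were rounded. FPKM and TPM were used as deposited. Library totals were 16971454 to 18005318.

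Counts were tested with edgeR 4.0.16 (R 4.3.3): filterByExpr at a minimum count of 10, TMM scaling, group alone, Benjamini-Hochberg adjustment. The SE is the log2 fold change over the square root of F. Shares and ratios of TPM were compared by exact permutation. Libraries of a group differed beyond sampling noise (mean chi-square per gene 1.62 to 4.15, against 99.3 to 104 between groups), so none was treated as a repeat deposit.

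Transporters and gene lists were chosen with earlier results of these data known. Genes named by rule are the 10 transporters, CRIP1, ATF4, SLC38A9, MYC, NFE2L2 and 4 markers. Per list, the rule adds the 3 called genes of smallest adjusted p plus the largest called fold at a mean of 1 TPM or more. Other genes named, such as SLC7A6OS, CCDC24, HBG1, TFRC, SLC7A2 and SLC1A3, fall outside this rule. Alternatives were a replicate block, 2 other scalings, DESeq2 1.42.0, 2 filters, limma 3.58.1 on log2 FPKM and TPM values, a GC trend removed (loess span 0.5), and each library left out. DESeq2 and limma had their own filters, so 16677 genes (DESeq2), 10999 (FPKM) and 11639 (TPM) were tested, and those fits change several choices together. Identity between the proteins was not analysed here.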

Additional observations from a re-analysis of the deposited data

How the results depend on the processing

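Counts of called transporters were 5 higher under each of 16 alternatives and 4 or 5 lower, and 9 of the 10 genes kept direction and call in all 16. For SLC38A1 the log2 fold change was 0.036 on log2(FPKM + 1) and 0.083 on log2(TPM + 1) and log2(TPM + 0.1), against -0.047 in edgeR, and was called at -0.15 with the GC trend removed. The count of called genes was 9783, from 8580 to 10306 over the alternatives. With the replicate number as a block it was 9816, with 5 transporters higher and 4 lower; same-numbered libraries did not deviate together (correlations -0.0133 to 0.0455), so the numbers were not treated as pairs.

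Amino acid response genes called lower numbered 3 rather than 7 on each log2 FPKM or TPM scale. eIF2alpha genes called higher numbered 5 with upper-quartile scaling and on log2(FPKM + 1), 6 on log2(TPM + 1) and log2(TPM + 0.1), and 2 with at least 50 counts in 3 libraries, rather than 1, and those called lower numbered 2 with the GC trend removed, rather than 0. Leaving out a library gave 1 to 2 higher and 0 to 1 lower, the upper values without shCRIP1 replicate 1.

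With CPM, which is not per length, in place of TPM, shares of the 10 genes, shCRIP1 over scramble, moved to 1.06 for SLC7A1 (0.870 in TPM, reversed), 1.10 for SLC7A11 (0.904, likewise on the other side of 1), 0.604 for SLC7A5, 1.91 for SLC3A2, 1.48 for SLC1A5, 0.591 for SLC1A4, 0.855 for SLC38A1, 0.689 for SLC38A2, 0.382 for SLC7A6 and 2.44 for SLC6A9. The light to heavy chain ratio in shCRIP1 over that in scramble was 0.317, from 0.311 to 0.330 over its alternatives, among them the further light chains, added after the data were seen. Estimated counts of the 10 genes were 784 or more in each library.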
